A study of Mus musculus with 12 samples.

Results

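The effect of deleting miR-146a in adipose tissue macrophages (ATMs) of lean mice was measured by comparing 3 miR-146a-/- libraries with 3 WT libraries on normal chow diet (NCD), 6 of the 12 libraries sequenced. Mice were 20 weeks old, had been on NCD from 6 weeks of age for 14 weeks, and were on a C57BL/6 background, with both copies of miR-146a missing from every tissue in the miR-146a-/- line. The non-adipocyte cells of the fat were sorted as live single cells positive for CD45, CD11b and F4/80, and the cells of 3 mice were combined before sorting for each library, so that the spread between libraries is a spread between pools of mice. The remaining 6 libraries hold the same 2 genotypes after the same time on high-fat diet (HFD) and are used only where named. Expression was recorded as FPKM (reads scaled to gene length and library size) for 15393 genes, with 10309359 to 11076298 reads per NCD library, and 12185 of these genes, whose level averaged 1 FPKM or more across the 6 NCD libraries, entered the test.

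miR-146a is a small RNA whose transcription is switched on by NF-kB, and it pairs through its seed, bases 2 to 8, with the 3' ends of mRNAs such as Traf6 and Irak1, which carry signals from Toll-like and IL-1 receptors back to NF-kB. It is therefore known as a brake on inflammatory signaling in myeloid cells. ATMs of lean adipose tissue are known for clearing dead cells and handling lipid, and in obesity they are a source of inflammatory cytokines.

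The sequences that define the deletion and its direct partners are shown first, with the mature RNA from RefSeq (GRCm38.p6) and the sites from GENCODE M21 transcripts on GRCm38. Capitals mark the seed in the RNA. miR-146b-5p, made from another chromosome and present in both genotypes, has the same seed.
mmu-miR-146a-5p, chr11:43374435-43374456, minus strand: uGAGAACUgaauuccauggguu
mmu-miR-146b-5p, chr19:46342790-46342811, plus strand: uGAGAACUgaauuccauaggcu
In the sites, capitals mark the 8mer AGTTCTCA, which is the complement of the seed followed by A. Traf6, with 2 of its 4 8mers, and Irak1 are shown because they are established targets, and Ifit2 and Skint3 because they are the 2 genes with an 8mer among those that changed.
Traf6 site 1, chr2:101697937-101697966: agaagttaccgctctggtgttgAGTTCTCA
Traf6 site 2, chr2:101698001-101698030: accatgatccctggaaggcttaAGTTCTCA
Irak1 site 1, chrX:74015393-74015422, minus strand: atccctcagactcagaggtcaaAGTTCTCA
Irak1 site 2, chrX:74015377-74015406, minus strand: ggtcaaagttctcatgcttggaAGTTCTCA
Ifit2, chr19:34575490-34575519: gtcattcctccaattaccagccAGTTCTCA
Skint3, chr4:112299035-112299064: aatcagagaagagtttagcatgAGTTCTCA

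The 6 libraries carried the genes of the sort and of macrophages in both genotypes. Emr1, which encodes F4/80, was at 405, 437 and 417 FPKM in WT and 445, 504 and 454 FPKM in miR-146a-/- ATMs. Ptprc (CD45) was at 227 to 249 FPKM in WT and 232 to 280 in miR-146a-/- ATMs, and Itgam (CD11b) at 133 to 143 and 130 to 140 FPKM. None of the 10 macrophage markers listed passed the test in either direction. The transcript of miR-146a itself was not analysed here, so the labels of the genotypes could not be checked by the deleted gene.

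On NCD, 59 of 12185 genes differed between miR-146a-/- and WT ATMs (0.484%), 36 of them higher (0.295%) and 23 lower (0.189%), in a limma fit of the 6 libraries on log2(FPKM + 1) with a Benjamini-Hochberg adjusted p under 0.05. The chemokine and cytokine genes Cxcl1, Csf2 and Il10, the interferon-induced genes Irf7, Ifit2, Zbp1 and Ly6e, the resident macrophage gene Timd4 and granule genes of neutrophils were among the higher ones. The lower ones held 7 small nucleolar RNAs (snoRNAs), the chaperone gene Hspa1b, the ribosomal protein gene Rps3a1 and Ide, the insulin-degrading enzyme. In all, 1411 genes had an unadjusted p under 0.05. Without regard to any test, the 3 miR-146a-/- libraries lay above all 3 WT libraries for 1261 genes (10.3%) and below them for 967 genes (7.94%). These shares are the background against which the gene groups are described. All log2 fold changes are on the log2(FPKM + 1) scale, which understates the change of genes near or below 1 FPKM. The median over all genes tested was 0.016.

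The number of genes that passed depended on which libraries entered the fit. With 1 library left out it was 24 without WT replicate 1, 13 without WT replicate 2, 19 without WT replicate 3, 34 without miR-146a-/- replicate 1, 45 without miR-146a-/- replicate 2 and 19 without miR-146a-/- replicate 3, and 8 genes passed in all 6 of these fits: Tpm3-rs7, 9930111J21Rik2, Rps3a1, Igkv8-24, Selenbp2, Gm23262, Ide and Cxcl1. When the 6 HFD libraries shared the estimate of the spread, 17 genes passed, 16 of them among the 59.

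**Figure D1:**
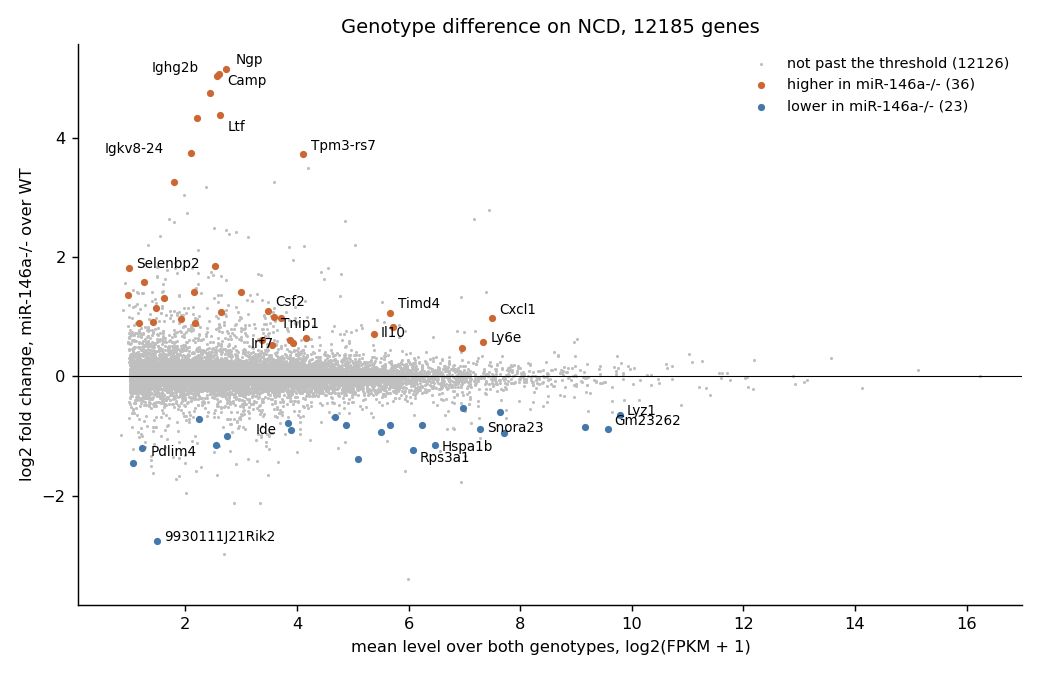
Log2 fold change between miR-146a-/- and WT ATMs on NCD against the mean level of each gene, both on the log2(FPKM + 1) scale, with 1 point per gene. Orange and blue points are the 36 higher and 23 lower genes past the threshold. Camp, Ngp and Ltf and 5 immunoglobulin segments past the threshold lie at the top left, with log2 fold changes of 3.25 and above, and cytokine and interferon genes lie nearer the centre.

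Genes of secreted inflammatory mediators and of a brake on NF-kB were higher in miR-146a-/- ATMs on NCD. Cxcl1, a chemokine that attracts neutrophils, was at 136, 111 and 135 FPKM in the WT libraries and at 254, 259 and 243 FPKM in the miR-146a-/- libraries. The groups were far apart, with means of 127 ± 14.4 and 252 ± 8.36 FPKM (SD, n = 3 libraries), and the log2 fold change was 0.99 (standard error 0.09, limma adjusted p = 0.00948). Csf2, which encodes GM-CSF, a growth factor of myeloid cells, was at 6.67, 5.38 and 7.93 FPKM in WT and at 13.6, 14.9 and 17.4 FPKM in miR-146a-/- ATMs. Its level rose by 1.10 on the log2 scale (standard error 0.14, limma adjusted p = 0.0318). Il10, an anti-inflammatory cytokine that resident macrophages also make, was at 33.4, 29.0 and 31.4 FPKM against 53.3, 58.5 and 44.7 FPKM, a log2 fold change of 0.71 (standard error 0.11, limma adjusted p = 0.0474). Tnip1, whose protein ABIN1 dampens NF-kB signaling together with A20, was at 7.62, 7.18 and 7.64 FPKM in WT and 18.6, 14.8 and 14.4 FPKM in miR-146a-/- ATMs. This was a log2 fold change of 0.99 (standard error 0.11, limma adjusted p = 0.015). For each of these 4 genes every miR-146a-/- library lay above every WT library. Csf2 and Tnip1 lie 10.9 and 11.5 Mb from miR-146a. For them its loss and any other allele inherited with it cannot be told apart.

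Of 32 measured genes in the list of cytokines and chemokines, which does not hold Csf2, Cxcl1 and Il10 were higher (6.25%, against 0.295% of all genes). None was lower, and 23 had a log2 fold change above 0, with a median of 0.13. Il1b, Il6 and Il1rn did not pass and had lower means in miR-146a-/- ATMs, with log2 fold changes of -0.32, -0.27 and -0.49, and Ccl2, Ccl7 and Ccl12, ligands of CCR2, had values of 0.36, 0.57 and 0.77 that did not pass either. Of 20 genes for NF-kB subunits and feedback inhibitors, Tnip1 was the only one past the threshold and the median was 0.017. Cxcl1 passed in all 6 fits that left out a library, whereas the highest adjusted p in those fits was 0.12 for Csf2, 0.17 for Il10 and 0.084 for Tnip1. With all 12 libraries in the fit the adjusted p was 0.77 for Cxcl1, 0.69 for Csf2, 0.24 for Il10 and 0.41 for Tnip1. Summed levels of neutrophil markers also differed between these libraries, as given with the marker lists, and their part in these changes was not tested.

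**Figure D2:**
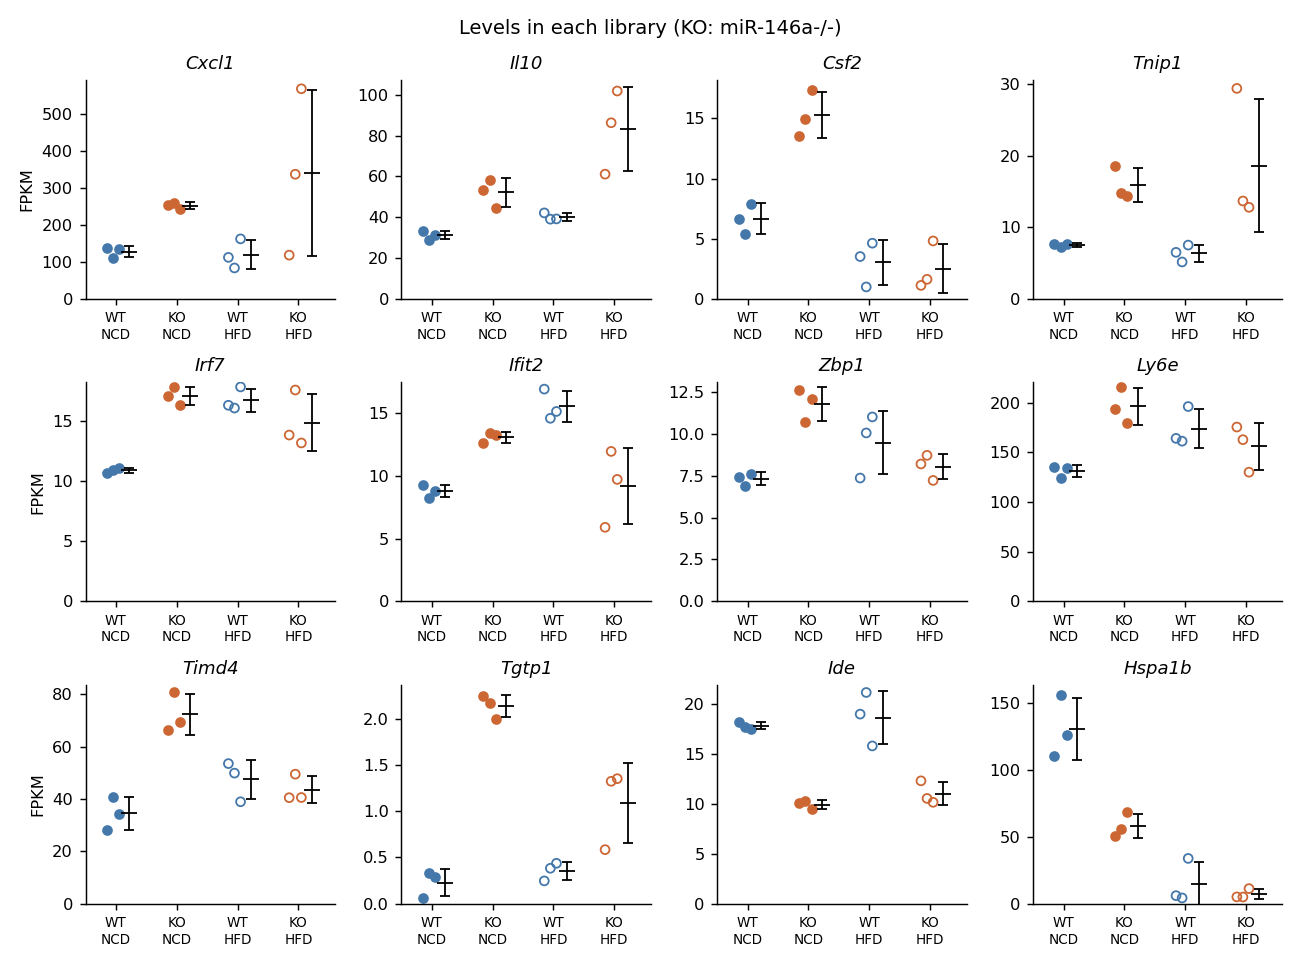
FPKM of 12 genes in each library, with WT in blue, miR-146a-/- (KO) in orange, NCD as filled and HFD as open points. Bars give the mean and SD of 3 libraries. On NCD the genotypes do not overlap for any of the 12 genes, while on HFD they overlap for Cxcl1, Csf2, Irf7, Zbp1, Ly6e, Timd4 and Hspa1b.

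The promoter of Cxcl1 is shown because this gene was the only chemokine gene past the threshold. Bases 120 to 1 before its RefSeq start (GRCm38.p6) hold a match to the NF-kB motif searched, GGGA followed by any base and TTTCC, in capitals, from 71 to 62 bases before the start.
Cxcl1, chr5:90891125-90891244, plus strand: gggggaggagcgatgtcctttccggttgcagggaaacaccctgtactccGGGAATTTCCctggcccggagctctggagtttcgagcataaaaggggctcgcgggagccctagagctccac
Searched on both strands over 250 bases, this motif occurred in 117 of 32851 promoters (0.356%). It was not found in that window for Csf2, Tnip1, Irf7, Ifit2 or Tgtp1. The core of the interferon response element, GAAA repeated after any 2 bases, occurred in 2.98% of promoters and, among those 6 genes, in that of Tgtp1.

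Among genes induced by type I interferon, Irf7, Ifit2, Zbp1 and Ly6e were higher on NCD. Of 63 measured members, these 4 rose (6.35%, against 0.295% of all genes), none fell and 59 did not pass. Irf7, the transcription factor that amplifies interferon production, was at 10.7, 10.9 and 11.1 FPKM in WT and 17.1, 17.9 and 16.3 FPKM in miR-146a-/- ATMs, a log2 fold change of 0.60 (standard error 0.07, limma adjusted p = 0.0164). Ifit2, which binds viral RNA, was at 9.25, 8.28 and 8.83 FPKM against 12.6, 13.4 and 13.2 FPKM, with a log2 fold change of 0.53 (limma adjusted p = 0.0409). Zbp1, a sensor of Z-form nucleic acid, was at 7.46, 6.91 and 7.64 FPKM against 12.6, 10.7 and 12.1 FPKM, with a log2 fold change of 0.62 (limma adjusted p = 0.0414). Ly6e, an antiviral surface protein, was at 135, 124 and 134 FPKM against 193, 216 and 179 FPKM, with a log2 fold change of 0.57 (limma adjusted p = 0.0452). None of these 4 overlapped between the genotypes.

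Over the whole list, 62 of 63 members had a log2 fold change above 0, against 6616 of all 12185 genes (54.3%), and the median was 0.22. All 3 miR-146a-/- libraries lay above all WT libraries for 37 of 63 members (58.7%), against the 10.3% of all genes, and none lay wholly below. Among members that did not pass, Ifit1 and Ifit3 had log2 fold changes of 0.69 and 0.62. The summed level of the list was 2603, 2574 and 2756 FPKM in WT and 3006, 3301 and 2908 FPKM in miR-146a-/- ATMs. With each library left out in turn, 59 to 62 members were above 0, and under 2 other scalings 61 to 62. None of the 4 called genes passed in any of the fits with a library left out, where their adjusted p reached 0.085 for Irf7, 0.16 for Ifit2, 0.17 for Zbp1 and 0.16 for Ly6e. Markers of neutrophils, NK cells and endothelial cells, and 8 of 10 monocyte markers, were higher in the same libraries and their part in these values was not tested.

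Groups close to the interferon response had few or no members past the threshold. The interferon-inducible GTPases, which attack the vacuoles of intracellular pathogens, had 16 of 17 members above 0 with a median of 0.18. Tgtp1 was the member that rose, from 0.06, 0.33 and 0.29 FPKM to 2.24, 2.16 and 2.00 FPKM (log2 fold change 1.36, limma adjusted p = 0.0164), and its near-identical copy Tgtp2 was at 1.95 to 2.56 and 1.48 to 1.86 FPKM. Their summed reads had a log2 ratio of 0.64. Tgtp1 lies 5.61 Mb from miR-146a, so the loss of miR-146a and any allele inherited with it cannot be told apart. MHC class I genes, which present peptides to CD8 T cells, had no member past the threshold, 23 of 24 above 0 and a median of 0.19. All miR-146a-/- libraries lay above WT for 15 of 24 (62.5%), against 10.3% of all genes. The 2 members with the smallest p were Tapbpl, a peptide editor, at 9.20, 8.98 and 9.12 FPKM against 11.8, 11.9 and 11.98 FPKM (limma adjusted p = 0.096), and H2-K1, a classical class I heavy chain, at 449, 417 and 474 FPKM against 587, 550 and 568 FPKM (limma adjusted p = 0.13). B2m, the light chain, had means of 1834 and 2367 FPKM. Complement genes had 20 of 24 members above 0 with a median of 0.19 and none past the threshold. The complement genes with the smallest p were Cfb, factor B, at 30.8, 22.8 and 24.7 FPKM against 50.5, 51.8 and 37.7 FPKM, and Vsig4, a complement receptor of resident macrophages, at 6.17, 5.28 and 6.98 FPKM against 3.20, 4.79 and 2.62 FPKM. In contrast, MHC class II genes had 4 of 17 members above 0 and a median of -0.04, with none past the threshold. In the PYHIN family of nucleic acid sensors 1 of 10 members was lower: Pydc3 fell from 2.65, 2.44 and 2.59 FPKM to 0.42, 0.78 and 0.45 FPKM. Its near-copy Pydc4 had means of 3.96 and 5.74 FPKM, and the log2 ratio of their summed reads was 0.058.

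**Figure D3:**
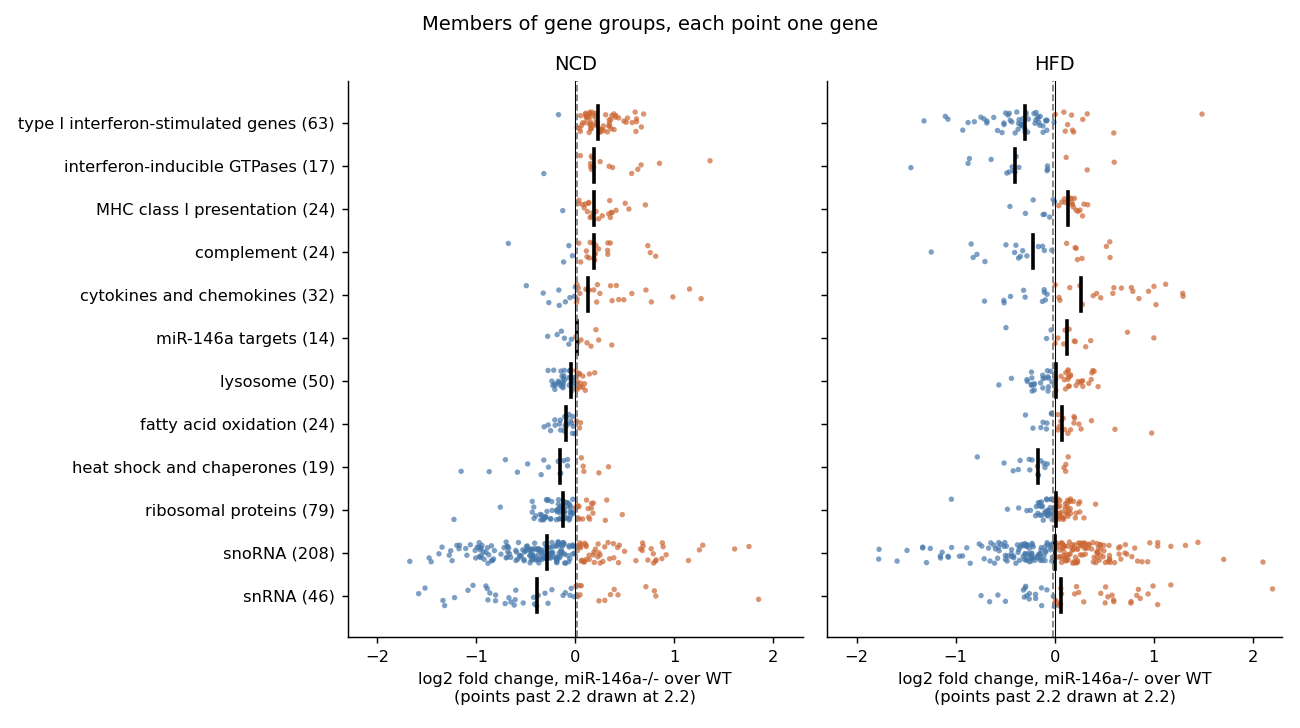
Log2 fold changes between miR-146a-/- and WT ATMs of the members of 12 gene groups on NCD (left) and on HFD (right), with 1 point per gene, orange above 0 and blue below, and a black bar at the group's median. The dashed line is the median of all genes tested. On NCD the interferon-stimulated genes lie to the right of 0 (median 0.22) and snoRNAs to the left (median -0.28), and on HFD their medians are -0.30 and 0.0047.

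None of the established targets of miR-146a passed the test on NCD. Traf6, the ubiquitin ligase that joins these receptors to NF-kB, was at 7.35, 6.54 and 6.41 FPKM in WT and 7.16, 7.69 and 7.41 FPKM in miR-146a-/- ATMs, so that the libraries overlapped and the log2 fold change was 0.12 (standard error 0.08, limma adjusted p = 0.65). Irak1, the kinase upstream of Traf6, was at 13.2, 14.8 and 13.8 FPKM against 16.02, 17.2 and 16.4 FPKM. Its libraries did not overlap, with a log2 fold change of 0.24 that did not pass (standard error 0.07, limma adjusted p = 0.27). Irak2, a related kinase with 1 8mer, was at 13.5, 12.6 and 12.3 FPKM against 14.4, 11.9 and 12.4 FPKM. Of 14 listed targets none passed, 8 had a log2 fold change above 0 and the median was 0.015. The 30 tested genes of Toll-like and IL-1 receptor signaling had none past the threshold and a median of 0.015, and the 2 with the smallest p, Tlr1 and Tlr2, had log2 fold changes of 0.32 and -0.21.

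Genes with seed matches in the 3' UTR and genes without had medians close to that of all genes. Of 10692 tested genes with an annotated 3' UTR, 489 held at least 1 8mer and had a median log2 fold change of 0.013, 2156 held an 8mer or 1 of 2 kinds of 7mer (AGTTCTC or GTTCTCA) and had a median of 0.011, and 8536 held none and had a median of 0.019. In the group with an 8mer, Ifit2 was higher and Skint3, an immunoglobulin-like surface gene, was lower, from 31.2, 28.8 and 33.8 FPKM to 21.5, 17.8 and 18.4 FPKM. With the 7mers, Dclk2 was also higher and Gm2a also lower, which made 4 of 2156 genes called, against 35 of 8536 without a site. A match to these letters describes the sequence and not whether a site is used.

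Among genes of resident macrophages, Timd4, a phosphatidylserine receptor that takes up dying cells, rose from 28.3, 41.0 and 34.5 FPKM in WT to 66.4, 81.1 and 69.6 FPKM in miR-146a-/- ATMs. The log2 fold change was 1.05 (standard error 0.14, limma adjusted p = 0.0404), and Timd4 also passed with all 12 libraries (adjusted p = 0.035), while its adjusted p reached 0.14 with a library left out. It and Il10 were the 2 of 35 tested resident macrophage genes that passed (5.71%, against 0.484% of all genes), with 25 of 35 above 0 and a median of 0.10. Timd4 was also the only 1 of 24 genes for scavenger receptors and efferocytosis that passed, and the median of that list was -0.033. As Timd4 lies 3.44 Mb from miR-146a, the loss of miR-146a and any allele inherited with it cannot be told apart. Lipid-associated macrophage genes had none of 31 past the threshold and a median of -0.0053. The members with the smallest p were Capg, an actin-capping protein, at 143 to 153 FPKM in WT and 118 to 130 FPKM in miR-146a-/- ATMs, and Acp5, an acid phosphatase, at 4.74 to 6.13 and 7.24 to 11.6 FPKM. Genes of alternative activation had none of 23 past the threshold, and the ribonuclease genes Rnase2a and Ear2 lay apart in opposite directions, at 7.92 to 16.4 against 36.3 to 54.0 FPKM and at 308 to 378 against 208 to 260 FPKM. Among 24 transcription factors of macrophages none passed, and Spi1, which encodes PU.1, was at 62.7 to 69.6 and 72.9 to 74.5 FPKM.

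Other genes past the threshold fall in none of the lists and code for proteins of varied function. Wdfy1, an endosomal adaptor linked to Toll-like receptors, was at 3.17, 3.53 and 3.06 FPKM against 9.03, 7.26 and 7.77 FPKM, with a log2 fold change of 1.08 (limma adjusted p = 0.00948). Anxa6, an annexin that binds membranes through calcium, was at 104, 109 and 99.6 FPKM against 145, 143 and 146 FPKM, with a log2 fold change of 0.47. Cst7, cystatin F, an inhibitor of cysteine proteases in immune cells, was at 2.32, 1.55 and 1.32 FPKM against 7.67, 4.90 and 6.23 FPKM. The muscle-type enolase Eno3 was at 3.51 to 4.56 and 9.86 to 16.4 FPKM, and Tppp and Tppp3, which promote the assembly of microtubules, had means of 8.24 and 17.4 FPKM and of 38.6 and 68.9 FPKM. Among the lower genes Ide, a protease that degrades insulin and amyloid peptides, was at 18.2, 17.7 and 17.5 FPKM in WT and 10.1, 10.3 and 9.43 FPKM in miR-146a-/- ATMs, a log2 fold change of -0.78 (standard error 0.07, limma adjusted p = 0.00642). Its groups did not overlap and the fall passed in all fits with a library left out. On HFD Ide was also apart, at 19.0, 21.1 and 15.8 FPKM in WT and 12.3, 10.5 and 10.1 FPKM in miR-146a-/- ATMs. Wdfy1 was apart there too, at 2.95, 2.68 and 2.27 against 9.02, 6.57 and 4.88 FPKM. Whether the lines differ in other alleles at Ide or Wdfy1 was not tested. Akr1c18, a hydroxysteroid dehydrogenase, was at 7.98, 9.98 and 7.42 FPKM against 3.62, 3.10 and 4.41 FPKM. Plcb1, a phospholipase C of G protein signaling, was at 5.53, 4.73 and 5.06 FPKM against 2.73, 2.92 and 2.52 FPKM. Lyz1, a lysozyme gene, was at 1077, 1047 and 1184 FPKM against 777, 686 and 648 FPKM, whereas Lyz2, its far more abundant copy, had means of 8105 and 7412 FPKM, and the log2 ratio of their summed reads was -0.18. Mir221, the gene of the microRNA miR-221, had means of 66.5 and 37.6 FPKM.

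Transcripts of other cell types differed between the same libraries. In the list of 14 neutrophil markers, 12 were tested, while Elane and Mpo were below the filter. All 12 had a log2 fold change above 0 and lay wholly above WT, as 10.3% of all genes did. Camp, Ngp, Ltf and Ly6g had WT means of 0, 0.052, 0.29 and 0.94 FPKM. They entered the test through their miR-146a-/- levels, which favours a rise. Of the 14, 2 were at 0 in all WT libraries, Camp and Elane. Camp, Ngp, Ltf and Ly6g passed the test, though Camp, Ngp and Ltf did so in 2 and Ly6g in 1 of the 6 fits with a library left out, and with limma voom on the recovered reads none of them did (adjusted p = 0.29 for Camp, 0.56 for Ngp, 0.38 for Ltf and 0.20 for Ly6g). Camp, a granule peptide, had 0 reads in every WT library and 336, 122 and 225 reads (54.2, 18.5 and 33.8 FPKM) in the miR-146a-/- libraries, at least 223-fold higher when the WT group is set to a floor of 3 reads in all. Ngp, another granule protein, had 2 WT reads in all and 864, 252 and 481 reads in the miR-146a-/- libraries, a ratio of 782 with an exact 95% counting interval of 216 to 6461. Ltf, lactoferrin, had 25 WT reads in all against 1320, 461 and 731 reads, a ratio of 98.4. These intervals cover counting error only. The more abundant S100a8 and S100a9 were at 43.0 to 63.9 against 212 to 607 FPKM and 57.0 to 69.4 against 270 to 762 FPKM, and did not pass (limma adjusted p = 0.13 and 0.10). The summed level of the neutrophil markers was 207, 256 and 259 FPKM in WT and 1770, 718 and 981 FPKM in miR-146a-/- ATMs, highest in miR-146a-/- replicate 1. In sorted bulk samples more cells of a type and more RNA per cell cannot be told apart.

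None of the markers of the remaining cell types passed the test. Summed levels did not overlap for endothelial markers, at 14.8 to 26.9 FPKM in WT and 35.7 to 67.6 FPKM in miR-146a-/- ATMs, for NK cell markers at 72.6 to 116 and 134 to 204 FPKM, for erythroid markers at 5.46 to 15.005 and 21.8 to 93.5 FPKM, and for dendritic cell markers, which were lower at 415 to 443 and 325 to 381 FPKM. The sums of macrophage markers did not overlap either and were lower in miR-146a-/- ATMs, at 10765 to 10874 FPKM in WT and 9571 to 10581 FPKM in miR-146a-/- ATMs. Lyz2 made up most of that sum, and 6 of the 10 macrophage markers were above 0, with a median of 0.022. T cell markers were above 0 in 16 of 16 members with a median of 0.84, and monocyte markers in 8 of 10 with a median of 0.83, and the sums of both overlapped. All miR-146a-/- libraries lay above all WT libraries for 6 of the 10 monocyte markers (60%), against 10.3% of all genes. They lay below for 2 (20%), against 7.94%. Ranges for markers of mast cells, B cells, plasma cells, eosinophils, fibroblasts, adipocytes, mesothelial cells, pericytes and platelets overlapped as well, and those of mesothelial cells by a narrow margin (6.27 to 13.6 and 13.6 to 30.9 FPKM). Of 102 tested genes annotated as immunoglobulin segments, among which Tcrg-C1 is classed, 6 rose (5.88%), against 0.295% of all genes. They were Ighg2b, Ighg2c, Ighv1-26, Igkv8-24, Igkv5-48 and Tcrg-C1. Their WT means were 0 to 0.37 FPKM, so they entered the test through their miR-146a-/- levels, which favours a rise. Ighg2b and Ighg2c, constant regions of IgG2 antibodies, had 0 reads in all WT libraries and 417, 207 and 478 reads and 350, 150 and 297 reads in the miR-146a-/- libraries, at least 360-fold and 260-fold higher with the same floor. They passed in 4 and 3 of the 6 fits with a library left out. With limma voom on the recovered reads Igkv8-24 and Igkv5-48 passed. Ighg2b, Ighg2c, Ighv1-26 and Tcrg-C1 did not (voom adjusted p = 0.29, 0.23, 0.059 and 0.085). The summed level of all segments was 2238 to 3883 FPKM in WT and 2148 to 3553 FPKM in miR-146a-/- ATMs. When the genes of the marker lists other than macrophage and all such segments were set aside before adjustment, 25 genes passed in place of 59. Of the 59, those set aside were the 4 neutrophil markers and the 6 immunoglobulin segments. The others that no longer passed kept the same p, and only the adjustment over the remaining genes changed.

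**Figure D4:**
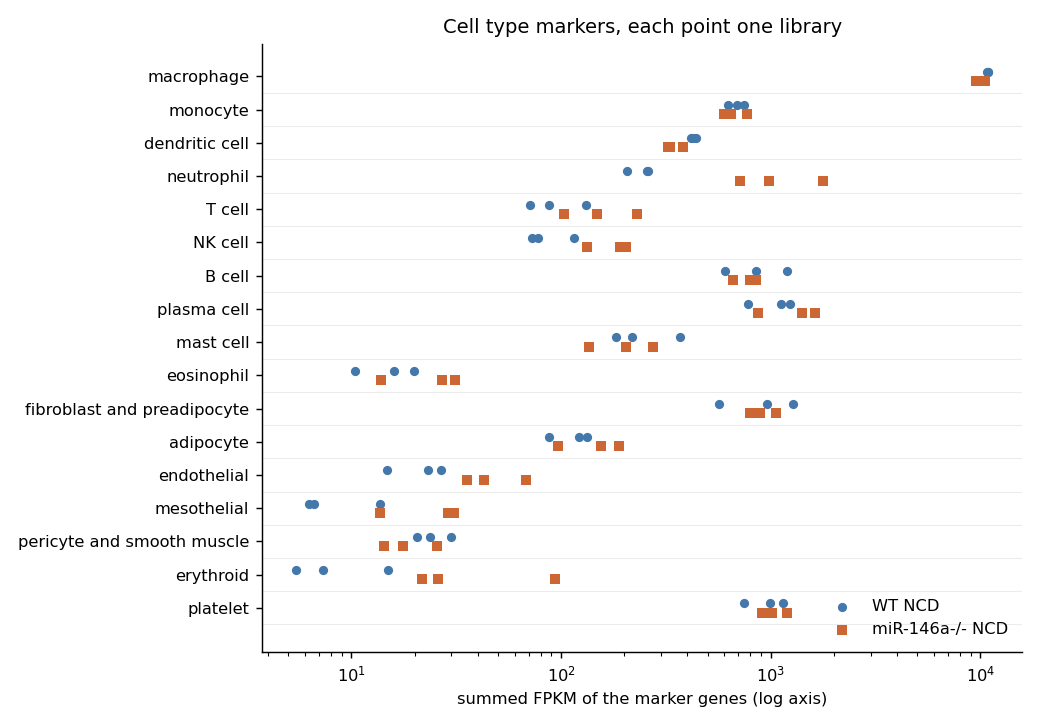
Summed FPKM of the marker genes of 17 cell types in each NCD library, on a log axis, with WT as blue circles and miR-146a-/- as orange squares. The neutrophil sums are 207 to 259 FPKM in WT and 718 to 1770 FPKM in miR-146a-/- ATMs, and the macrophage sums are 10765 to 10874 and 9571 to 10581 FPKM.

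Among small RNAs of the nucleolus, 7 snoRNAs were lower in miR-146a-/- ATMs on NCD, and among ribosomal protein genes Rps3a1 was. snoRNAs guide the chemical modification and cleavage of ribosomal RNA. Of 208 tested snoRNAs, 7 fell (3.37%, against 0.189% of all genes) and none rose. A log2 fold change below 0 was seen for 153 of them, against 5569 of all 12185 genes, and the median of the snoRNAs was -0.28. All miR-146a-/- libraries lay below all WT libraries for 47 of them (22.6%), against the 7.94% of all genes. Rnu3a, the U3 RNA needed for cleavage of the ribosomal RNA precursor, was at 664, 846 and 807 FPKM in WT and 414, 416 and 451 FPKM in miR-146a-/- ATMs, a log2 fold change of -0.85 (standard error 0.10, limma adjusted p = 0.0213). Snora23 was at 226, 213 and 188 FPKM against 116, 109 and 115 FPKM (log2 fold change -0.87, limma adjusted p = 0.00948), and the unnamed snoRNA Gm23262 at 970, 1065 and 1047 FPKM against 577, 557 and 536 FPKM. The summed level of the class was 22853 to 23608 FPKM in WT and 17856 to 19764 FPKM in miR-146a-/- ATMs, without overlap. The 46 tested snRNAs, RNAs of the spliceosome and their relatives, had a median of -0.38 with 2 lower and 1 higher (6.52% in either direction, against 0.484% of all genes). With each library left out in turn, 49 to 68 of the snoRNAs lay above 0, and the part of the differing marker levels in these values was not tested.

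Ribosomal protein genes had 60 of 79 tested members below 0 and a median of -0.12. All miR-146a-/- libraries lay below WT for 21 of them (26.6%), against 7.94% of all genes. Rps3a1 was the only one past the threshold, at 96.5, 107 and 103 FPKM in WT and 44.7, 40.9 and 43.8 FPKM in miR-146a-/- ATMs, a log2 fold change of -1.23 (standard error 0.07, limma adjusted p = 8.64e-04). Heat shock genes, which code for chaperones, had 14 of 19 members below 0 and a median of -0.15. Hspa1b, the inducible HSP70, fell from 110, 156 and 127 FPKM to 50.7, 55.7 and 68.3 FPKM (log2 fold change -1.15, limma adjusted p = 0.0418), and its near-identical copy Hspa1a was at 134, 171 and 141 FPKM against 69.8, 77.1 and 97.1 FPKM (limma adjusted p = 0.08). The summed reads of the pair had means of 807 and 404 CPM (reads scaled to library size). Hspa1b did not pass in any of the fits with a library left out (adjusted p up to 0.15) or with all 12 libraries (0.81). On HFD it was at 6.05, 4.35 and 33.9 FPKM in WT and 5.12, 5.03 and 11.3 FPKM in miR-146a-/- ATMs. Every HFD library thus lay below every NCD library, and the cause of this was not tested.

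Some of the largest changes were in genes with near-identical copies, between which reads can be divided in counting. Tpm3-rs7, a copy of the tropomyosin gene Tpm3, was at 3.53, 4.08 and 3.63 FPKM in WT and 59.1, 61.7 and 65.7 FPKM in miR-146a-/- ATMs, while Tpm3 itself was at 35.8, 40.6 and 37.0 FPKM against 19.8, 21.03 and 22.7 FPKM. The log2 ratio of their summed reads was 0.13. The unnamed gene 9930111J21Rik2 had 477, 509 and 422 reads in WT and 7, 5 and 8 reads in miR-146a-/- ATMs, and the log2 ratio of its reads summed with those of its neighbour copy was -1.20. Selenbp2, a selenium-binding protein gene, had 1, 2 and 1 reads against 56, 76 and 69 reads, whereas its copy Selenbp1 had means of 29.0 FPKM in both genotypes.

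Changed genes were gathered around the miR-146a locus on chromosome 11. Of 253 tested genes within 20 Mb of miR-146a, 12 passed (4.74%), 8 higher and 4 lower, against 3 of 794 on the rest of the chromosome (0.378%) and 44 of 11138 on other chromosomes (0.395%). The 12 lay 3.44 to 11.7 Mb from the locus, all on the same side, and included Timd4 at 3.44 Mb, Tgtp1 at 5.61 Mb, Csf2 at 10.9 Mb, Tnip1 at 11.5 Mb and Anxa6 at 11.6 Mb among the higher genes. Pdlim4, an actin-binding PDZ and LIM protein, at 10.7 Mb, was lower, at 9.09, 7.17 and 6.88 FPKM in WT and 2.88, 3.14 and 2.75 FPKM in miR-146a-/- ATMs, and so was Gm2a, the activator of ganglioside breakdown in lysosomes, at 162, 144 and 144 FPKM against 112, 98.0 and 100.6 FPKM. The loss of miR-146a and any other allele inherited with it in this line cannot be told apart for these genes. With genes within 20 Mb of miR-146a set aside and the adjustment repeated on the same p-values, 39 of the others passed. On chromosome 3, Rps3a1, Dclk2, Kirrel, Tpm3 and Selenbp2, all past the threshold, lie between bases 86137939 and 94704413. Each kept its sign on HFD, without overlap between the genotypes. Whether the lines differ in other alleles there was not tested.

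**Figure D5:**
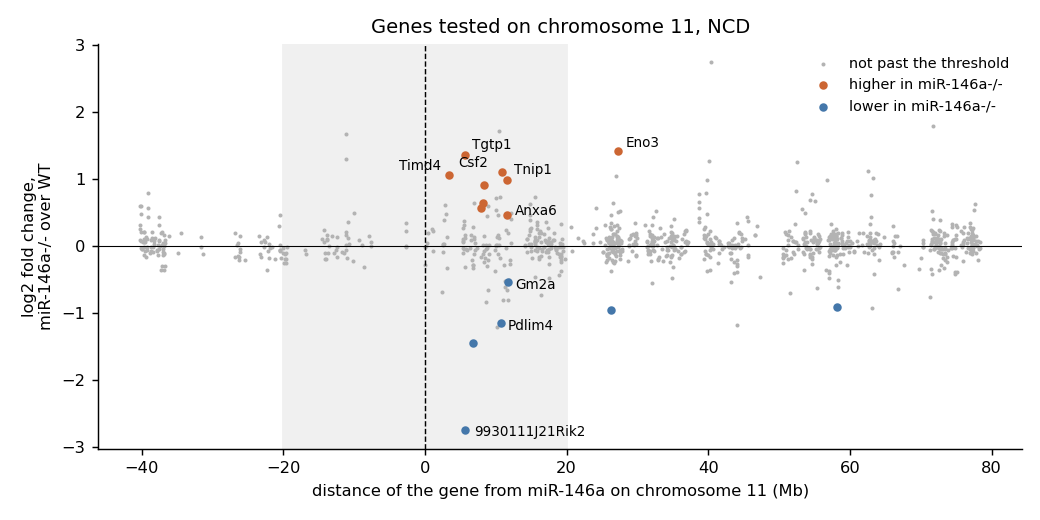
Log2 fold change on NCD of each gene tested on chromosome 11 against its distance from miR-146a in Mb (dashed line). The grey band marks 20 Mb on either side, which holds 12 of the 15 genes past the threshold on this chromosome, and these lie 3.44 to 11.7 Mb to the right of the locus.

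No member of the lists that follow passed the threshold. The glycolysis list does not hold Eno3 and the lysosome list does not hold Gm2a, which both passed. Fatty acid oxidation genes had 3 of 24 above 0 with a median of -0.09, and Etfb, which passes electrons from that pathway, was at 49.5 to 59.5 FPKM in WT and 39.2 to 46.7 FPKM in miR-146a-/- ATMs. Lysosome genes had 16 of 50 above 0 and a median of -0.048, with the proton pump gene Atp6v1b2 at 42.5 to 43.8 against 34.9 to 36.1 FPKM. All miR-146a-/- libraries lay below all WT libraries for 10 of the 50 lysosome genes (20%), against 7.94% of all genes, and above them for none. Oxidative phosphorylation genes had 27 of 72 above 0 with a median of -0.023, and the subunit genes Atp5e and Uqcrq lay apart in opposite directions, with log2 fold changes of -0.35 and 0.53. Genes of LXR targets and cholesterol efflux had 10 of 17 above 0, with Abcg1, which exports cholesterol, at 16.5 to 26.3 against 10.97 to 13.7 FPKM. Cholesterol synthesis genes had 18 of 23 above 0 and a median of 0.14. Medians lay between -0.1 and 0.1 for lipid droplet genes (17 of 29 above 0), glycolysis (12 of 22), hypoxia (10 of 26), the PI3K, AKT and mTOR list (20 of 41), NRF2 targets (24 of 39), the unfolded protein response (7 of 23), mitochondrially encoded genes (3 of 9) and the proteasome (14 of 31). The same held for immediate early genes (19 of 30), the cell cycle (18 of 40), iron and heme genes (11 of 21), Fc receptors (5 of 9), the BCL2 family (6 of 14) and the circadian clock (4 of 15), where the repressor Nr1d2 was at 13.6 to 16.8 against 8.50 to 10.2 FPKM. Integrin and adhesion genes had 17 of 22 above 0 with a median of 0.098, and chemokine receptors 8 of 12 with a median of 0.23.

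The HFD libraries gave values of the called genes that the NCD comparison had not used. Of the 59 genes, 38 had the same sign on HFD and 20 had the same sign with an unadjusted p under 0.05, where 1313 of 12162 genes (10.8%) had such a p in either direction. After adjustment 4 passed on HFD in the same direction, Tpm3-rs7, 9930111J21Rik2, Selenbp2 and Pydc3, among 8 of 12162 genes (0.0658%). Il10 was at 42.1, 39.0 and 39.2 FPKM in WT and 61.1, 86.3 and 102 FPKM in miR-146a-/- ATMs on HFD, with groups that did not overlap. Tnip1 was at 6.50, 5.16 and 7.52 FPKM against 29.4, 13.7 and 12.8 FPKM, likewise apart. Cxcl1 spread widely on HFD, at 112, 83.4 and 162 FPKM in WT and 118, 337 and 568 FPKM in miR-146a-/- ATMs, so that its groups overlapped. Csf2 was at 3.51, 0.99 and 4.63 FPKM against 1.11, 1.62 and 4.81 FPKM, with no order between the genotypes.

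Interferon genes and snoRNAs took other values on HFD. Of the 63 interferon-stimulated genes, 11 had a log2 fold change above 0 on HFD and the median was -0.30, against 62 and 0.22 on NCD. Irf7 was at 16.3, 16.1 and 17.8 FPKM in WT and 13.8, 17.6 and 13.2 FPKM in miR-146a-/- ATMs on HFD. Timd4 was at 53.6, 49.9 and 39.0 FPKM against 40.5, 49.5 and 40.6 FPKM. MHC class I genes had 16 of 24 members above 0 on HFD, with a median of 0.13. snoRNAs had 105 of 208 above 0 and a median of 0.0047, and ribosomal protein genes 42 of 79 with a median of 0.0090. On HFD the WT and miR-146a-/- means were 598 and 678 FPKM for Gm23262, 103 and 110 for Snora23 and 513 and 661 for Rnu3a. For each of these snoRNAs every WT library was lower on HFD than on NCD, whereas for Gm23442 the WT libraries of the 2 diets overlapped. This difference within WT was not tested. Camp, Ngp and Ltf had log2 fold changes of 4.82, 5.25 and 4.81 on HFD, with 1 miR-146a-/- library far above the others. No gene passed the test of a difference between the genotype effects on the 2 diets in limma, with 1484 genes at an unadjusted p under 0.05 and a lowest adjusted p of 0.157, and with voom on the recovered reads it was also 0 genes, with 1502 and 0.0762. The differences between the diets described here are therefore values side by side and not called for any single gene.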

How the data were processed

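Members, gene lists and tests were chosen with earlier results of these data known. The deposited values are FPKM computed by the authors. The submitters' processing notes name the genome build mm10, Novoalign and DESeq2 without versions or roles. Multiplying back by gene length and library total gave whole reads for 184716 of 184716 values (within 0.0001 reads). Values were analysed as log2(FPKM + 1), keeping genes that averaged 1 FPKM or more in the 6 NCD libraries, with limma 3.58.1 in R 4.3.3 and statmod 1.5.0 (lmFit, then eBayes with trend and robust options) and Benjamini-Hochberg adjustment at 0.05. The HFD comparison used its own 6 libraries and the difference between diets all 12. Nothing states that libraries of one group came from separate cohorts, so p-values measure the spread between these pools.

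Named were, among genes that passed without overlap, the 12 rising and 12 falling most, leaving out unnamed models, members of 38 pathway lists that passed or the 2 with the smallest p, leading members of 18 marker lists, genes of the sort, established targets and near-identical copies. Not every gene that this rule names is given, and others that passed, such as Csf2, Wdfy1, Anxa6, Cst7, Tppp, Tppp3, Lyz1 and Gm2a, and some list members were chosen after their values were seen. Seed matches were searched in the longest annotated 3' UTR of each gene. Alternatives were a pseudocount of 0.1, no filter or a mean of at least 5 FPKM, a filter over 12 libraries, median-ratio scaling, quantile normalization, all 12 libraries, no trend, no robust estimate, array weights, a replicate block, limma voom on recovered reads, each library left out and a fold change of at least 1.5. Counts without marker genes and without genes near miR-146a, the voom test of the difference between diets, and alternatives for snoRNAs, snRNAs and immunoglobulin segments were added after seeing the data. Tables were handled in pandas 2.3.3 and numpy 2.4.6, intervals taken from scipy 1.17.1 and plots drawn with matplotlib 3.10.9 under Python 3.11.15.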

Additional observations from a re-analysis of the deposited data

Results flagged for a closer look

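The effect of genotype pointed in opposite directions on the 2 diets, with no overlap between genotypes on either, for 2 genes that passed on NCD. For Ifit2 the log2 fold changes were 0.53 (NCD) and -0.75 (HFD), where its levels were 16.9, 14.6 and 15.2 FPKM in WT and 5.90, 11.96 and 9.73 FPKM in miR-146a-/- ATMs. The snoRNA Gm24339 had -0.93 on NCD and 0.56 on HFD, with 30.1, 27.7 and 23.7 FPKM against 35.2, 34.1 and 54.4 FPKM on HFD. The limma test of the difference itself gave an unadjusted p of 4.13e-04 for Ifit2 and 1.07e-04 for Gm24339, and adjusted p of 0.177 and 0.157, so neither difference passed the threshold.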

How the results depend on the processing

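The number of genes that passed on NCD (59) moved by over 1.5 times in limma with all 12 libraries (17, of which 16 shared), without a mean trend (30), without a robust estimate (32), with a replicate block (37, with 17 higher and 20 lower) and with voom on recovered reads (92, with 50 higher and 42 lower, of which 44 shared), and it was 13 to 45 with 1 library left out, where fewer libraries enter the fit. Replicate numbers did not pair the libraries, since deviations of same-numbered libraries correlated at 0.042, 0.035 and -0.014 and WT replicate 2 correlated best with miR-146a-/- replicate 3. Setting aside marker and immunoglobulin genes gave 25 and setting aside genes within 20 Mb of miR-146a gave 39. In both cases each p was kept and only the adjustment was repeated. Other settings gave 46 to 65. The difference of medians between genes with and without a seed match went from -0.0078 to -0.016 at a mean of at least 5 FPKM. Signs turned for genes that had not passed: with quantile normalization Lyz2 (0.040), Itgam (0.014) and Irak2 (-0.019), with median-ratio scaling Irak2 (-0.013), and Irak2 ranged from -0.072 to 0.056 with a library left out. No sign turned among the 59. The cause of these changes was not tested. The fold change rule was not run for directions of lists, which it leaves unchanged. At 10309359 to 11076298 reads per library, genes near 1 FPKM rest on few reads, so their changes are the least certain.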
